A study of Mus musculus with 9 samples.

Results

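Integrins are the receptors by which macrophages hold on to matrix, to vessel walls and to the particles they take up. Their expression was described here for 10 subunit genes, the α subunits Itgal, Itgam, Itgax, Itga4, Itga6 and Itgav and the β subunits Itgb1, Itgb2, Itgb3 and Itgb5. They were taken by gene symbol, as subunits known from macrophages, from the 24411 genes of one RNA-seq table. The table holds 3 YS lines, 3 FL lines and 3 BM lines, which are macrophages expanded in long-term culture from yolk sac (E9.5), fetal liver (E14.5) and adult bone marrow of C57BL/6 mice. All 9 lines were grown in the presence of M-CSF, the growth factor on which they depend, and no group carries a transgene or another treatment. The lines are bulk cultures, not clones, and each began from cells pooled from at least 2 mice, so lines of one origin may derive from a shared pool and p-values measure only the spread between these cultures.

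An integrin works as a pair of an α and a β subunit that reach the cell surface together, and a β subunit is often shared by several α subunits. The β2 integrins are the leukocyte group: LFA-1 (Itgal with Itgb2) binds ICAM molecules on other cells, Mac-1 (Itgam with Itgb2, CD11b/CD18) is a complement receptor that also binds fibrinogen, and CD11c/CD18 (Itgax with Itgb2) is a second complement receptor, used as a marker of dendritic cells and some tissue macrophages. The β1 pairs read fibronectin, VCAM-1 and laminin, and the αv pairs (Itgav with Itgb1, Itgb3 or Itgb5) read vitronectin, osteopontin and the bridging proteins that coat dying cells. The αvβ3 pair is best known from osteoclasts, and platelets carry Itgb3 with another α subunit.

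The values are TPM (transcript abundance), which divide reads by transcript length and scale each library to the same total, so levels of different genes can be compared within a library but no read depth is kept. Between 13345 and 14322 genes were above 0 TPM in a library. A gene was tested if 3 or more of the 9 libraries reached 1 TPM, which 11753 genes did, and their log2(TPM + 1) values correlated with r of 0.912 to 0.96 among YS lines, 0.947 to 0.963 among FL lines and 0.975 to 0.985 among BM lines. BM line 2 stood apart from the other BM lines: it held, at a median of 14.1% of their level in YS line 2, 43 genes that reached 20 TPM there and were under 0.5 TPM in both other BM lines, and haemoglobin Hba-a1 was at 215 TPM in it and at no more than 8.62 TPM elsewhere. The 8 macrophage markers summed to 3051 to 6992 TPM, with Csf1r, the M-CSF receptor, at 1086 to 2441 TPM. Markers of fibroblasts, mast cells and lymphocytes summed to at most 1.13, 0.1 and 0.62 TPM, and hepatocyte markers, mostly Afp, to 1.03 to 20.6 TPM. The 6 endothelial markers summed to 8.07 to 67.0 TPM in the YS lines, 22.1 to 94.0 TPM in the FL lines and 39.3 to 44.9 TPM in the BM lines, with Emcn listed at 0 throughout. Kdr was at 0.29, 16.1 and 54.35 TPM in the YS lines, 17.4 to 50.4 TPM in the FL lines and at most 0.86 TPM in the BM lines. Vwf went the other way, at 2.7 to 13.7, 3.13 to 42.2 and 37.6 to 44.8 TPM. Pecam1 was at 4.91, 8.17 and 0.29 TPM in the YS lines and at most 0.56 TPM elsewhere. Cdh5 reached at most 1.38 TPM and Tek 0.04 TPM. The part of endothelial cells in the subunit values was not tested.

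Taken as a set, the 10 subunits summed to 1580 to 2503 TPM in a library and held 88.0% to 93.5% of the TPM of all 27 integrin subunit genes in the table. Itgb1, the β chain with the widest choice of partners, was the highest subunit in 8 of the 9 libraries, and in FL line 2 Itgal was higher. In YS lines Itgb1 averaged 479 ± 96.0 TPM (SD, n = 3) and was followed by Itgam, Itgb2, Itga6, Itgb5 and Itgal, whose ranges over the 3 lines all overlapped. In FL lines Itgb1 was at 557 ± 53.6 TPM, and Itgb2, Itgal and Itgam came next with ranges that overlapped each other. In BM lines the order was clearer: Itgb1 (622 ± 39.2 TPM), Itgb2 (514 ± 26.2 TPM), Itgam, Itgb5 and Itgal followed one another without overlap between neighbours, while Itgal, Itga6 and Itgav overlapped. Itgax and Itgb3 were the lowest of the 10 in every group. The plot of the 10 subunits by line shows these levels.

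**Figure D1:**
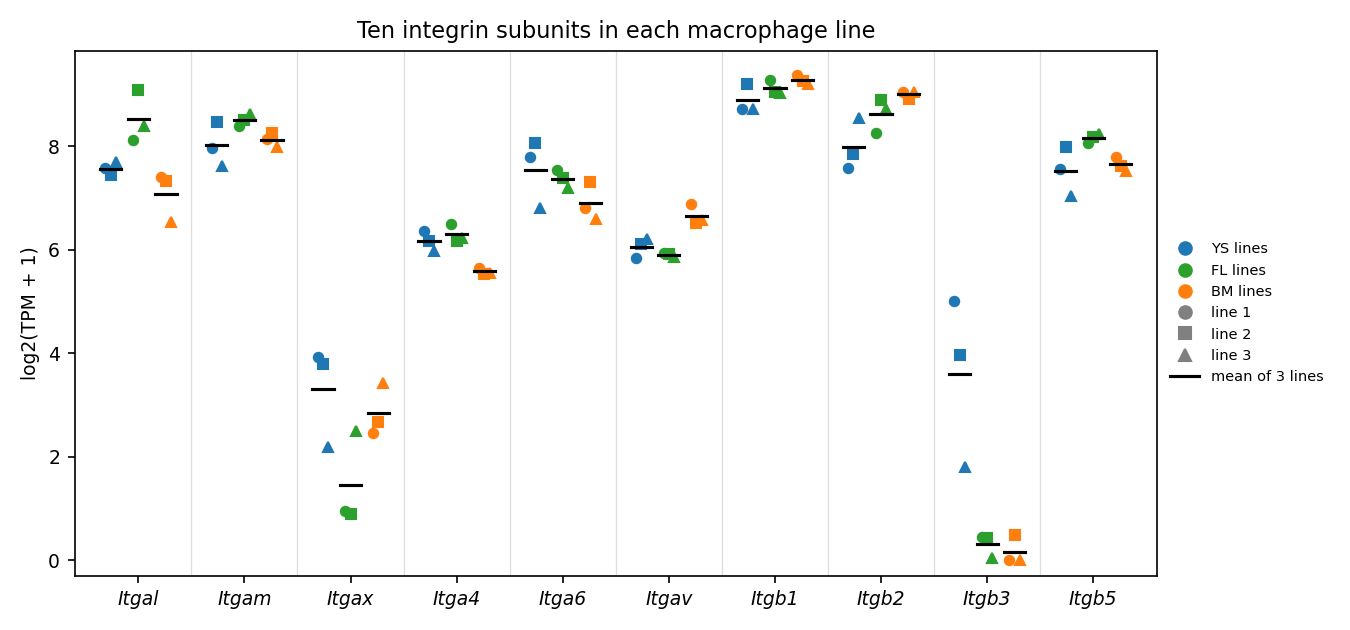
Level of each of the 10 integrin subunits on a log2(TPM + 1) scale (vertical axis) in each of 9 lines. Each point is a line, colour gives the group, symbol shape the line number and the black bar the mean of 3 lines. Itgb1 lies near the top in all groups, Itgb3 is above 2 TPM in the YS lines and under 0.5 TPM in the 6 FL and BM lines, and Itgal is highest in FL lines.

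Groups of lines were compared with limma on log2(TPM + 1), in a fit over all 11753 genes and all 9 libraries, and a gene was called differentially expressed at a false discovery rate (FDR, the Benjamini-Hochberg adjusted p) under 0.1 and a difference of more than 2-fold. On this scale the fold change of a gene with low TPM is understated. Between YS and BM lines 2 of the 10 subunits were called, Itgb3 higher and Itgb2 lower in YS lines, where 12.8% of all genes tested were called (7.57% higher and 5.22% lower; 890 of 1504 calls were higher, and 724 of 1487 after quantile normalization). Between FL and BM lines 1 subunit was called, Itgal, higher in FL lines, where 10.3% of all genes tested were called (6.01% higher and 4.30% lower). Between YS and FL lines 2 were called, Itgb3 and Itgax, both higher in YS lines, where 3.79% of all genes tested were called (1.95% higher and 1.85% lower). These comparisons share groups of lines, so their counts are not separate pieces of evidence. Itgb3 passed the filter only through its 3 YS lines, so a difference of YS from the other lines was built into its being tested and counted. With no threshold on the fold, 5, 3 and 3 subunits passed the FDR, where the shares of all genes were 37.9%, 27.6% and 12.8%. The 2 groups compared did not overlap for 5, 6 and 3 subunits, where they did not overlap for 49.0%, 49.5% and 26.1% of all genes. The median difference of the 10 subunits was 0.17, 0.26 and -0.18 on the log2 scale in YS against BM, FL against BM and YS against FL lines, beside 0.11, 0.09 and 0.02 over all genes tested, and median-of-ratios scaling took the first of these medians over all genes to 0.00. Every one of the 30 directions of the subunits was kept under both other scalings. In bulk RNA of this kind, fewer cells with a transcript and less of it per cell cannot be told apart.

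**Figure D2:**
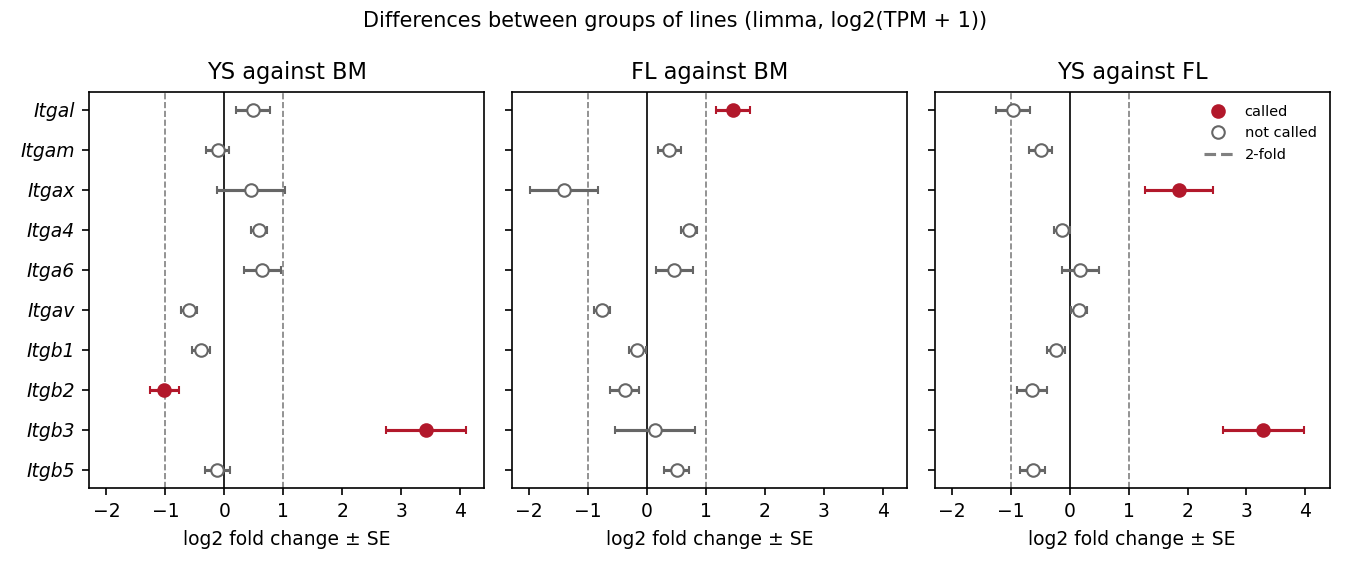
Difference between groups of lines for each of the 10 subunits as log2 fold change with its standard error (horizontal axis), in 3 comparisons. Filled red points were called and open grey points were not, and dashed lines mark 2-fold. Itgb3 lies at 3.42 and 3.29 in the comparisons of YS lines with BM and FL lines, Itgal at 1.45 in FL against BM lines, and most other subunits within 1 of 0.

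In the β2 group the shared β chain was highest in BM lines, where the α chain Itgal was lowest. Itgb2 was at 189.8, 229.6 and 372 TPM in the YS lines 1, 2 and 3, at 306, 477 and 421.5 TPM in the FL lines and at 529, 484 and 529.9 TPM in the BM lines. All 3 YS lines lay below all 3 BM lines, and FL lines lay between, below the BM lines and overlapping the YS lines. The difference of YS from BM lines was -1.02 ± 0.25 on the log2 scale (SE, adjusted p = 0.019, limma), 2.03-fold and so just past the threshold. Leaving out YS line 1 or 2 or BM line 1 or 3 took it under 2-fold, to -0.81 at the least. FL lines differed from BM lines by -0.38 ± 0.25 (adjusted p = 0.32, limma) and YS from FL lines by -0.64 ± 0.25 (adjusted p = 0.16, limma), and neither was called.

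Itgal, the α chain of LFA-1, was at 277, 547 and 336 TPM in the FL lines, at 189, 173 and 206 TPM in the YS lines and at 168, 159 and 91.3 TPM in the BM lines. The groups did not overlap, in the order FL, YS and BM, although YS line 2 and BM line 1 were close. FL lines were 1.45 ± 0.29 above BM lines on the log2 scale (SE, adjusted p = 0.0098, limma), or 2.74-fold, and the call was kept in all 20 alternatives with an adjusted p of 0.0093 to 0.033. YS lines differed from FL lines by -0.97 ± 0.29 (adjusted p = 0.086, limma), under 2-fold, and 0.49 ± 0.29 above BM lines (adjusted p = 0.23, limma). FL line 2 carried the highest value, and without it the difference of FL from BM lines was 1.17. Of the markers of neutrophils and progenitors, S100a8 was highest in the FL lines too, at 10.5, 25.1 and 24.2 TPM against 2.19, 0 and 0.54 TPM in the YS lines and 5.0, 3.43 and 3.66 TPM in the BM lines. The list summed to 10.8 to 25.6 TPM in the FL lines, 0.39 to 3.7 TPM in the YS lines and 3.66 to 5.0 TPM in the BM lines, Elane and S100a9 were listed at 0 in every line, and its part in the Itgal values was not tested.

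Itgam, which encodes CD11b and serves as a general myeloid marker, was abundant in all lines. It was at 250.1, 351 and 196 TPM in the YS lines, at 336, 364 and 394 TPM in the FL lines and at 280.4, 307 and 252 TPM in the BM lines. FL lines lay above BM lines without overlap, by 0.38 ± 0.20 on the log2 scale (SE, adjusted p = 0.21, limma), and YS lines covered the BM range on both sides. Itgam was called in none of the 3 comparisons, with differences of -0.49 to 0.38.

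Itgax, its neighbour on chromosome 7 and the gene of CD11c, was far lower and far more variable. It was at 14.3, 12.9 and 3.53 TPM in the YS lines, at 0.92, 0.85 and 4.68 TPM in the FL lines and at 4.5, 5.41 and 9.71 TPM in the BM lines. YS lines 1 and 2 were the highest of the 9 and FL lines 1 and 2 the lowest, while YS line 3 lay below FL line 3, so the groups overlapped. YS lines were 1.86 ± 0.58 above FL lines on the log2 scale (SE, adjusted p = 0.094, limma), higher in 8 of the 9 pairs of lines. That call was lost in 13 of 20 alternatives, including each of YS lines 1 and 2, FL lines 1 and 2 and the 3 BM lines left out, with an adjusted p of 0.045 to 0.25 over all of them. FL lines differed from BM lines by -1.41 ± 0.58 (adjusted p = 0.13, limma), which was called without YS line 3, without FL line 3 and in a fit of the 6 libraries alone. Of the dendritic cell markers, Flt3 and Cd209a were listed at 0 in every line and the 6 markers summed to 7.37 to 8.34 TPM in the YS lines, 2.88 to 7.5 TPM in the FL lines and 3.47 to 4.1 TPM in the BM lines, mostly Zbtb46, and their part in the Itgax values was not tested.

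Itgam and Itgax lie side by side as related genes, followed by another, Itgad, which was at no more than 0.04 TPM in any line. Their upstream sequences are shown because neighbouring genes for α chains of the same β partner had such different levels. The sequences run 5′ to 3′ from 250 to 6 bases before the annotated start, from RefSeq on GRCm38.p6, plus strand, at chr7:128062390-128062634 for Itgam and chr7:128129300-128129544 for Itgax, and no annotated exon overlaps them. Capitals mark matches, on either strand, to GAGGAA, the core of the site of PU.1 (the myeloid transcription factor encoded by Spi1), or to TGANTCA, the AP-1 site.
Itgam: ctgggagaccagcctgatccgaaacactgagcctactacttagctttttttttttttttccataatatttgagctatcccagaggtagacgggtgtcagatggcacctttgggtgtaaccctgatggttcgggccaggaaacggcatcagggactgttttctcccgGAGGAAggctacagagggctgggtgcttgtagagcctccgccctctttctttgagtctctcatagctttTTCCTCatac
Itgax: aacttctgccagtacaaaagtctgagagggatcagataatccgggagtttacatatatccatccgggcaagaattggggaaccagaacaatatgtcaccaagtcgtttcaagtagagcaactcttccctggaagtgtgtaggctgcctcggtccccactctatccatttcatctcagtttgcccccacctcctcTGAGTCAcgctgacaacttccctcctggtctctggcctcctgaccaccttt
The Itgam window held GAGGAA in 2 places, 84 and 15 bases before the start, the latter on the opposite strand, and no TGANTCA. The Itgax window held TGANTCA once, 56 bases before the start, and no GAGGAA. Neither held TATAAA. Among 32851 RefSeq promoter windows of this length, 22.7% held GAGGAA, 6.66% held TGANTCA and 12.2% held TATAAA, so such matches are common and describe letters only. Spi1 itself was at 364 to 456 TPM in the 9 lines. Of the 10 subunits, 6 had a promoter entry, and in the other 4 of these (Itga4, Itgav, Itgb1 and Itgb5) the only match was GAGGAA in Itgav, 218 bases before the start.

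Ratios of subunits were taken within each library, with 1 TPM added to both sides. Where a subunit is low, as Itgb3 and Itgax are in some lines, the added TPM bears on the ratio. The summed α chains of the β2 group (Itgal, Itgam, Itgax and Itgad) exceeded Itgb2 in every YS and FL line and were below it in every BM line. On the log2 scale the ratio was 1.25, 1.22 and 0.12 in YS lines, 1.00, 0.93 and 0.80 in FL lines and -0.22, -0.04 and -0.58 in BM lines. The groups differed from BM lines by 1.15 (YS) and 1.19 (FL) without overlap, each with p = 0.1 in an exact two-sided permutation test, the smallest p that 3 lines against 3 allow, and 0.2 adjusted over the 12 ratio tests. YS and FL lines differed by -0.04 (exact permutation p = 1). Line 3 of the YS group, whose Itgb2 was the highest of that group, lay close to 0.

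The ratio of Itgax to Itgam was -4.04, -4.67 and -5.44 in YS lines, -7.45, -7.62 and -6.12 in FL lines and -5.68, -5.59 and -4.56 in BM lines on the log2 scale. FL lines did not overlap either other group, differing from BM lines by -1.79 and lying 2.35 below YS lines (exact permutation p = 0.1 each, 0.2 adjusted over 12 tests). The sizes depended on the constant added. With 0.1 and 4 TPM the difference of FL from BM lines was -2.30 and -1.18, and that of YS from FL lines was 2.89 and 1.65. In linear terms Itgax reached at most 0.0608 of Itgam, in YS line 1, with 1 TPM added to both.

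**Figure D3:**
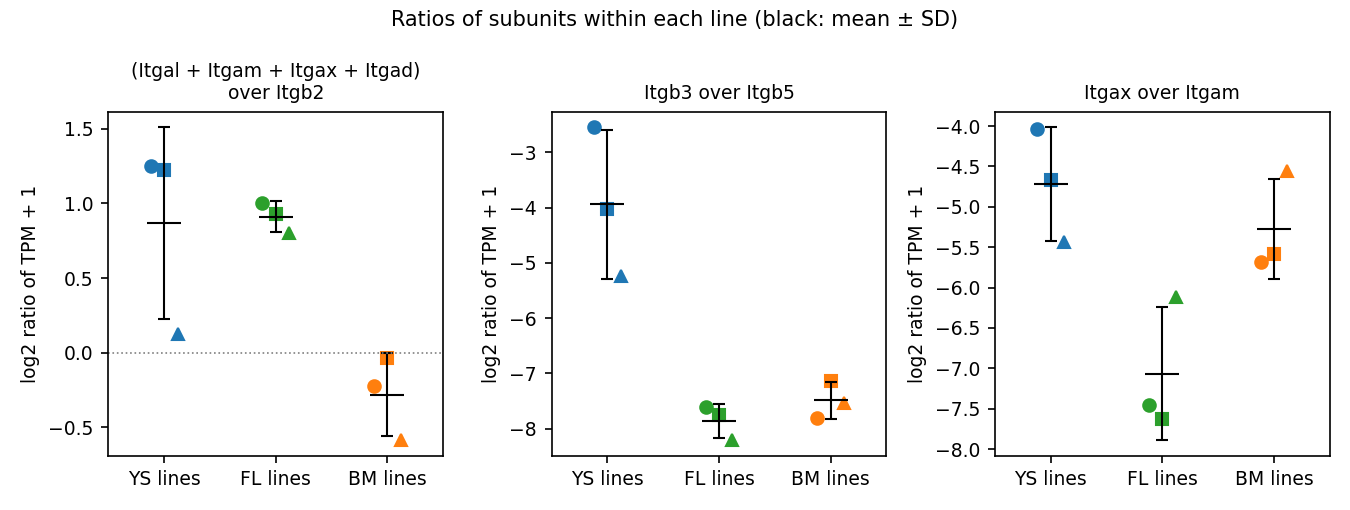
Log2 ratio of subunits within each line (vertical axes, 1 TPM added to both sides), by group, with black bars for mean ± SD of 3 lines. The α chains of the β2 group lie above Itgb2 in YS and FL lines and below it in BM lines, Itgb3 over Itgb5 is highest in the 3 YS lines, and Itgax over Itgam is lowest in the 3 FL lines.

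Among the β chains that pair with Itgav, Itgb3 was the subunit with the widest difference between groups. Itgb3 was at 31.3, 14.6 and 2.47 TPM in the YS lines 1, 2 and 3, at 0.36, 0.34 and 0.03 TPM in the FL lines, and in BM lines at 0.41 TPM in line 2 and listed at 0 in lines 1 and 3. The lowest YS line was still above all 6 FL and BM lines, and the YS lines themselves ranged widely. The gene passed the filter on low values only through its 3 YS lines, so a difference between YS and the other lines was built into its being tested. YS lines were 3.42 ± 0.68 above BM lines (SE, adjusted p = 0.0092, limma) and 3.29 ± 0.68 above FL lines (adjusted p = 0.041, limma) on the log2(TPM + 1) scale, and FL differed from BM lines by 0.14 ± 0.68 (adjusted p = 0.91, limma). The size depends on the constant added: with 0.1 in place of 1 TPM the difference of YS from BM lines was 5.94, and with 4 TPM it was 1.97. The call against BM lines was kept in 19 of 19 alternatives in which the gene was tested, while that against FL lines was lost without FL line 2 (adjusted p = 0.11), without FL line 3 (0.12) and in a fit of the 6 libraries alone (0.16). Without BM line 2, which held the only Itgb3 among BM lines, the difference of YS from BM lines was 3.59.

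Markers of cells known for Itgb3 moved in several ways beside it. Of the 9 osteoclast markers, Dcstamp, needed for cell fusion, was at 44.0, 28.7 and 5.16 TPM in the YS lines, 0.1, 0.08 and 0.55 TPM in the FL lines and 3.46, 6.15 and 5.19 TPM in the BM lines. Ctsk, the bone-degrading protease, went the other way, at 0.28 to 0.49 TPM in the YS lines and 90.2 to 1270.2 TPM in the BM lines, and Calcr was at no more than 0.04 TPM. Acp5 was at 6.86, 0.69 and 0 TPM in the YS lines and at most 1.58 TPM elsewhere, and Ocstamp at 3.7, 0.63 and 0.09 TPM and at most 0.31 TPM elsewhere. Atp6v0d2 was at 0.5 to 4.59 TPM in YS and 6.34 to 23.8 TPM in BM lines, Mmp9 was highest in BM line 3 (9.61 TPM) and Oscar reached 0.25 TPM. The whole osteoclast list summed to 66.1 to 125 TPM in the YS lines, 59.7 to 69.4 TPM in the FL lines and 196 to 1424 TPM in the BM lines. Nfatc1 alone held 59.3 to 65.6, 54.4 to 61.6 and 92.8 to 114 TPM of these. Of the 6 megakaryocyte markers, Gp1bb was at no more than 0.08 TPM, and Itga2b, the platelet partner of Itgb3, reached at most 0.36 TPM, while Gp9 was at 3.78, 0.6 and 1.17 TPM in the YS lines and listed at 0 in all others. The list summed to 231 to 2125 TPM in YS, 616 to 1730 TPM in FL and 39.3 to 394 TPM in the BM lines, nearly all of it Pf4. The part of these cells in the Itgb3 values was not tested.

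Itgav, the α chain of the vitronectin receptors, was highest in BM lines. It was at 56.1, 68.4 and 73.4 TPM in the YS lines, at 60.4, 59.4 and 56.8 TPM in the FL lines and at 117, 90.7 and 94.4 TPM in the BM lines. Every BM line was above every YS and FL line. The differences from BM lines passed the FDR but not the 2-fold threshold, at -0.60 ± 0.14 in YS lines (SE, adjusted p = 0.014, limma) and -0.76 ± 0.14 in FL lines (adjusted p = 0.0064, limma).

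Itgb5, the other β partner of Itgav and a receptor used in the uptake of dying cells, was abundant in every line. It was at 188, 254 and 131 TPM in the YS lines, at 265, 288 and 302 TPM in the FL lines and at 222, 196 and 183 TPM in the BM lines. FL lines were the highest without overlap, by 0.51 ± 0.21 over BM lines (SE, adjusted p = 0.13, limma) and YS lines differed from them by -0.63 ± 0.21 (adjusted p = 0.11, limma), and neither was called. Itgb5 was the larger of these 2 β transcripts in every line: the log2 ratio of Itgb3 to Itgb5 was -2.55, -4.03 and -5.25 in YS lines, -7.61 to -8.20 in FL lines and -7.13 to -7.80 in BM lines. YS lines did not overlap the others, with differences of 3.54 from BM and 3.91 from FL lines (exact permutation p = 0.1 each, 0.2 adjusted over 12 tests). Itgb3 made up 3.75%, 1.34% and 0.265% of the TPM of all β subunits in YS lines 1, 2 and 3 and at most 0.0317% in the others.

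Itgb1 was at 424, 590.0 and 423 TPM in the YS lines, at 619, 531 and 521 TPM in the FL lines and at 665, 614 and 588 TPM in the BM lines. YS line 2 overlapped the BM lines and the others did not. The lower mean of YS lines passed the FDR but not the fold threshold (-0.39 ± 0.15 against BM lines, SE, adjusted p = 0.080, limma), and Itgb1 had the smallest range of group means among the 10 subunits, 0.39 on the log2 scale. It held 40.9% to 54.2% of the TPM of all β subunits in a library, followed by Itgb2 at 21.1% to 40.7% and Itgb5 at 14.0% to 24.3%.

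Of the α chains that pair with Itgb1, Itga4 binds VCAM-1 and fibronectin. It was at 81.9, 71.4 and 61.7 TPM in the YS lines, at 89.7, 70.7 and 74.0 TPM in the FL lines and at 48.9, 45.6 and 46.2 TPM in the BM lines. All 6 embryonic lines were above all 3 BM lines, by 0.59 ± 0.13 in YS lines (SE, adjusted p = 0.015, limma) and 0.72 ± 0.13 in FL lines (adjusted p = 0.0076, limma), which passed the FDR and not the 2-fold threshold. An exon of Itga4 overlaps Cerkl on the opposite strand, which was at 0.16 to 8.14 TPM and highest in BM lines, and whether strand was used in the counting is not stated. Exons of Itgam overlap Gm49368 on the same strand and exons of Itgav overlap Gm13684 on the opposite strand, and neither of these genes has values here.

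Itga6, the α chain of laminin receptors, was at 219.7, 266 and 111 TPM in the YS lines, at 185, 166 and 145 TPM in the FL lines and at 111, 159 and 95.6 TPM in the BM lines. YS line 3 was within the BM range and the groups overlapped in each comparison. No difference was called, at 0.65 ± 0.31 for YS against BM lines (SE, adjusted p = 0.16, limma), 0.46 for FL against BM and 0.18 for YS against FL lines. Without YS line 3 the first of these rose past the threshold, to 1.02 (adjusted p = 0.017, limma). The log2 ratio of Itga4 to Itga6 averaged -1.38 in YS, -1.07 in FL and -1.33 in BM lines and the groups overlapped (exact permutation p = 0.5 to 0.9).

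Beyond the 10 subunits, the table listed 17 other integrin genes, of which 6 passed the filter. Between YS and BM lines 3 of these 6 were called and between FL and BM lines 2, where 12.8% and 10.3% of all genes tested were called. Itga9, an α chain of β1 that binds tenascin and osteopontin, was at 84.9, 65.8 and 22.3 TPM in the YS lines, 49.2, 40.1 and 36.0 TPM in the FL lines and 8.96, 13.9 and 4.58 TPM in the BM lines. Every YS and FL line was above every BM line, by 2.44 ± 0.50 (SE, adjusted p = 0.0099, limma) and 2.18 ± 0.50 (adjusted p = 0.017, limma) on the log2 scale. Itga5, the fibronectin receptor chain, went the other way, at 56.8, 126 and 125 TPM in the YS lines, 126, 118 and 162 TPM in the FL lines and 231, 251 and 252 TPM in the BM lines. Its difference of YS from BM lines was -1.33 ± 0.29 (adjusted p = 0.012, limma), but -0.95 and under 2-fold without YS line 1, and FL lines differed from BM lines by -0.86 ± 0.29 (adjusted p = 0.066, limma), under 2-fold.

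The other called subunits were low. Itgb7, a partner of Itga4, was at 1.66, 1.53 and 4.63 TPM in the YS lines, 1.41, 0.59 and 0.23 TPM in the FL lines and 0.06, 0.21 and 0 TPM in the BM lines, with YS lines 1.63 ± 0.38 above BM lines (SE, adjusted p = 0.016, limma). It passed the filter through the YS lines and FL line 1 only. The size of its difference depended on the constant added, at 3.81 with 0.1 TPM and 0.66, not called, with 4 TPM. Itga8 was at 7.1, 10.04 and 3.79 TPM in the FL lines, 0.46, 0.95 and 0.41 TPM in the BM lines and 0.05, 5.11 and 1.06 TPM in the YS lines, and FL lines were 2.25 ± 0.59 above BM lines (adjusted p = 0.030, limma; 0.10 and not called without BM line 3). Itga7 (0.33 to 5.7 TPM) and Itga10 (0.18 to 1.52 TPM) were not called. Between YS and FL lines 0 of the 6 were called by limma, with 2 at an unadjusted p under 0.05, where 3.79% of all genes tested were called. The 11 that failed the filter stayed at or under 1.28 TPM, the level of Itga3 in YS line 3, and Itgb6 and Itgb8 were listed at 0 throughout.

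**Figure D4:**
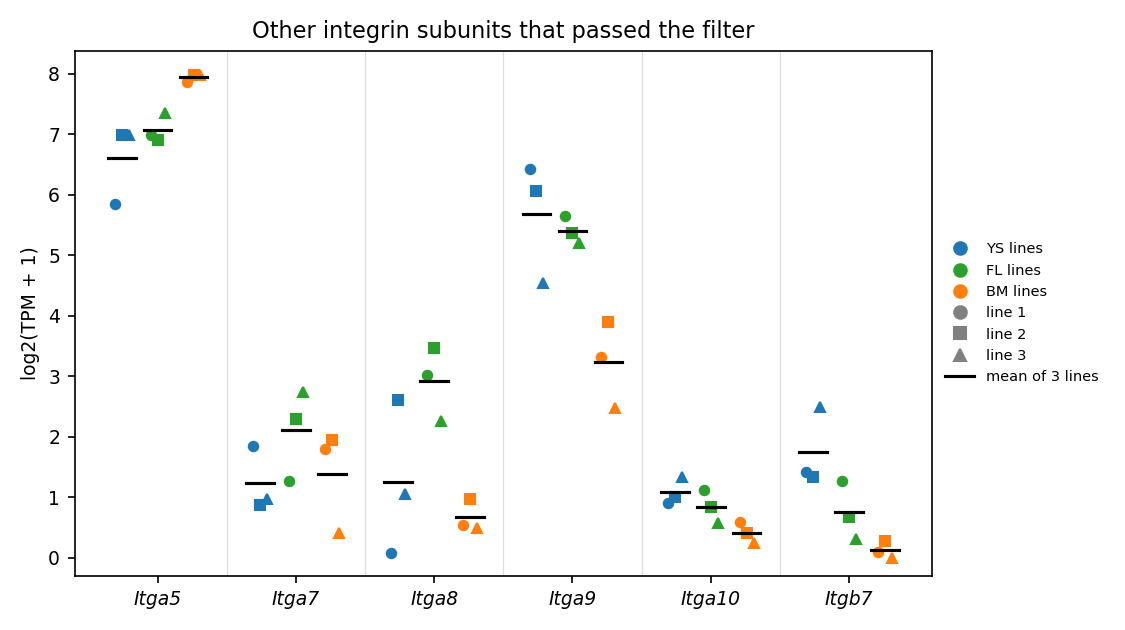
Level of the 6 other integrin subunits that passed the filter, on a log2(TPM + 1) scale, in each of 9 lines. Points are lines, coloured by group, and black bars are means of 3 lines. Itga5 is highest in BM lines, Itga9 is higher in all YS and FL lines than in BM lines, and Itga7 and Itga10 overlap between most groups.

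Integrins are switched on from inside the cell by talin, kindlin and the small GTPase Rap1. Of 21 genes of this step, 16 were tested. Between YS and BM lines 0 were called by limma (6 at an unadjusted p under 0.05), between FL and BM lines 2 were called and between YS and FL lines 0 (3 at an unadjusted p under 0.05). Of all genes tested, 12.8%, 10.3% and 3.79% were called in these comparisons. With no fold threshold 5, 8 and 0 of the 16 passed the FDR, beside 37.9%, 27.6% and 12.8% of all genes. The talin Tln1 was 0.65 (YS) and 0.51 (FL) above BM lines on the log2 scale (adjusted p = 0.0030 and 0.0066, limma). Rap1a was 0.68 and 0.62 above them (adjusted p = 0.0098 and 0.016, limma), and Rap1b 0.27 and 0.95 (adjusted p = 0.41 and 0.024, limma). The kindlin Fermt3 differed by -0.47 and -0.53 (adjusted p = 0.055 and 0.046, limma). All were under 2-fold, and for Tln1, Rap1a and Fermt3 neither group overlapped BM lines. Cytip, which binds cytohesin and restrains β2 adhesion, was at 1.63, 2.59 and 2.46 TPM in the FL lines against 16.4, 7.94 and 8.4 TPM in the BM lines, and at 25.7, 14.0 and 2.77 TPM in the YS lines. Its difference of FL from BM lines was -1.83 ± 0.63 (SE, adjusted p = 0.075, limma) and was lost in 9 of 20 alternatives. Rapgef3, an activator of Rap1 that responds to cyclic AMP, was low throughout, at 1.03 to 2.43 TPM in FL and 0 to 0.33 TPM in the BM lines (1.18 ± 0.32, adjusted p = 0.033, limma, lost in 4 of 19 alternatives).

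Once bound, integrins signal and grip actin through kinases and adaptor proteins, and here 5, 8 and 2 of 32 tested genes were called in YS against BM, FL against BM and YS against FL lines. That was 15.6%, 25% and 6.25% of the list, beside 12.8%, 10.3% and 3.79% of all genes tested. In the first comparison 1 was higher and 4 lower in YS lines, and in the second 3 were higher and 5 lower in FL lines. Lims2, an adaptor of the integrin-linked kinase complex, had the largest difference: it was at 8.02, 18.8 and 1.17 TPM in the YS lines, 9.44, 1.75 and 24.5 TPM in the FL lines and 233, 207 and 219.6 TPM in the BM lines. YS and FL lines differed from BM lines by -4.92 ± 0.90 and -4.61 ± 0.90 on the log2 scale (SE, adjusted p = 0.0070 and 0.0092, limma). Parvg, a parvin of blood cells in the same complex, went the other way, at 253, 114 and 160.3 TPM in the YS lines, 93.0, 91.7 and 73.9 TPM in the FL lines and 35.7, 35.9 and 2.93 TPM in the BM lines. Its differences from BM lines were 3.26 ± 0.77 and 2.31 ± 0.77 (adjusted p = 0.017 and 0.069, limma), the latter lost in 5 of 20 alternatives, and BM line 3 was far below the other BM lines.

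The tyrosine kinase Src passed the filter on low values only through its 3 BM lines, so a difference from BM lines was built into its being tested. It was at 7.09, 5.17 and 6.93 TPM in the BM lines and at 0.14 to 0.81 TPM in the 6 YS and FL lines (-2.26 ± 0.25 and -2.41 ± 0.25, adjusted p = 0.0013 and 0.00077, limma). Nedd9, a docking protein of the focal adhesion kinase, was at 21.8, 23.4 and 18.8 TPM in the FL lines, 1.94, 4.16 and 5.13 TPM in the YS lines and 3.58, 3.88 and 1.44 TPM in the BM lines. FL lines stood above both other groups. They were 2.55 ± 0.34 above BM lines (SE, adjusted p = 0.0019, limma), and YS lines differed from them by -2.30 ± 0.34 (adjusted p = 0.016, limma).

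Of 34 ligand genes, 14 were tested, and 4, 5 and 0 were called in YS against BM, FL against BM and YS against FL lines (4 at an unadjusted p under 0.05 in the last). The shares called over all genes tested were 12.8%, 10.3% and 3.79%. Icam2, a ligand of LFA-1, was at 40.7, 21.2 and 36.7 TPM in the YS lines, 15.0, 17.3 and 17.7 TPM in the FL lines and 4.47, 7.53 and 4.22 TPM in the BM lines. The groups did not overlap, with differences from BM lines of 2.39 ± 0.27 and 1.5 ± 0.27 (SE, adjusted p = 0.0014 and 0.0065, limma). Spp1, which encodes osteopontin, a ligand of αv, Itga4 and Itga9 pairs, was among the most abundant transcripts of BM lines at 13837, 15522 and 16560.4 TPM, and was at 108, 4978 and 7227 TPM in the YS lines 1, 2 and 3 and 668, 693 and 2201 TPM in the FL lines. FL lines differed from BM lines by -3.92 ± 1.37 (adjusted p = 0.080, limma, lost in 9 of 20 alternatives), and the difference of YS from BM lines, -3.27 ± 1.37, was not called (adjusted p = 0.11, limma).

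C3, the complement protein whose fragment Mac-1 and CD11c/CD18 bind, was at 119, 125 and 128 TPM in the BM lines, 84.2, 4.6 and 25.5 TPM in the FL lines and 27.1, 68.4 and 125.0 TPM in the YS lines. FL lines differed from BM lines by -2.42 ± 0.89 (SE, adjusted p = 0.092, limma), which was lost in 10 of 20 alternatives.

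Of the 10 membrane proteins that travel with integrins, all tested, 3 were called in each comparison with BM lines, where all 3 were lower in YS lines and 2 were lower and 1 higher in FL lines. The shares called over all genes tested were 12.8% (YS against BM) and 10.3% (FL against BM). Cd9, a tetraspanin, was at 766, 324 and 155 TPM in the YS lines, 624, 276 and 287 TPM in the FL lines and 1702, 1238 and 1267 TPM in the BM lines (-2.04 ± 0.54 and -1.91 ± 0.54, SE, adjusted p = 0.025 and 0.038, limma). Cd82, another tetraspanin, was likewise lower in YS and FL lines than in BM lines, where it was at 202 to 227 TPM, with differences of -1.59 and -1.28 on the log2 scale (adjusted p = 0.030 and 0.076, limma, the latter lost in 8 of 20 alternatives). Cd151, the tetraspanin of laminin-binding integrins, was at 46.6, 59.4 and 50.2 TPM in the YS lines and 104 to 123 TPM in the BM lines (-1.12 ± 0.15, adjusted p = 0.0026, limma). Plaur, the urokinase receptor, was higher in FL lines (206, 261 and 252 TPM) than in BM lines (104, 137 and 93.2 TPM), by 1.11 ± 0.21 (adjusted p = 0.0072, limma). Between YS and FL lines 0 of the 10 were called by limma, with 3 at an unadjusted p under 0.05, where 3.79% of all genes tested were called.

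**Figure D5:**
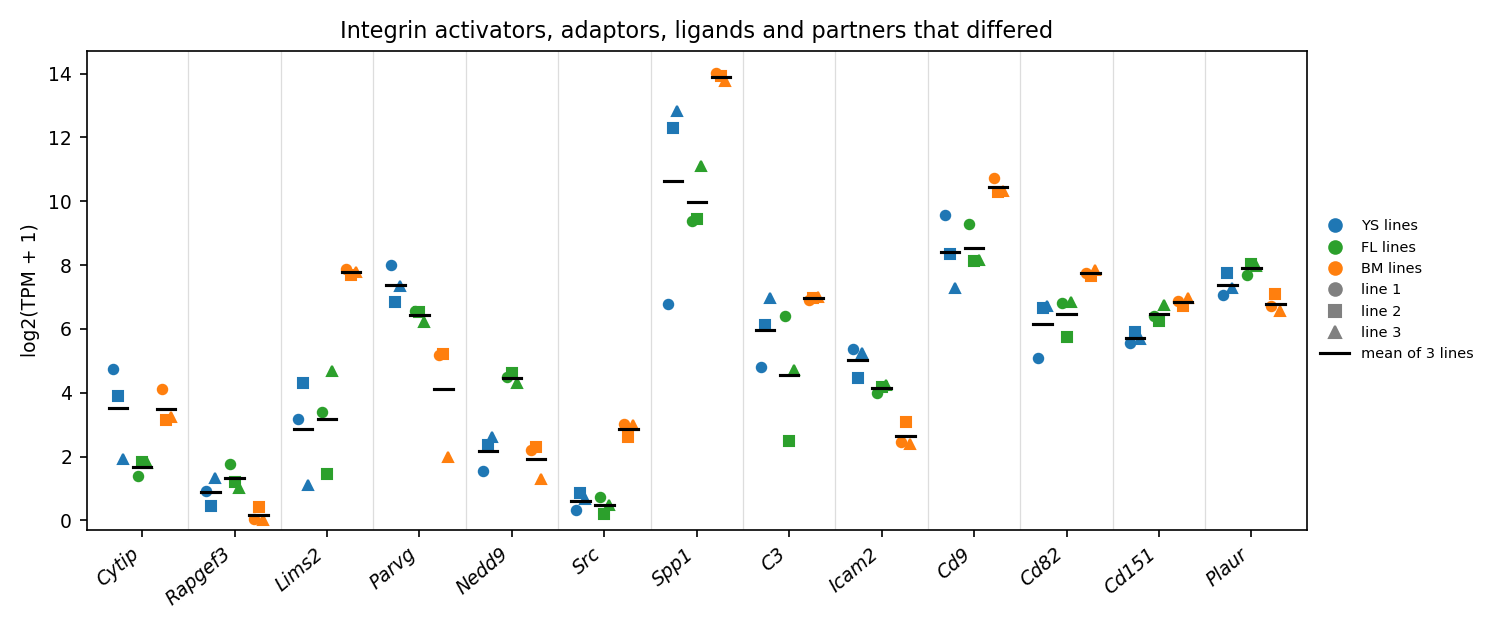
Level of integrin activators, adaptors, ligands and membrane partners on a log2(TPM + 1) scale in each of 9 lines. Points are lines, coloured by group, and black bars are means of 3 lines. Lims2, Src, Cd9 and Cd82 are highest in the 3 BM lines, Icam2 and Parvg in the 3 YS lines, and Nedd9 in the 3 FL lines.

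For the 3 subunits with the widest range of group means, tested genes among the most like them over the 9 libraries were listed by Pearson's r of log2(TPM + 1), as a description of libraries that share groups. For Itgb3 these were Gstp1 (r = 0.988) and Ankrd54 (r = 0.983). Gstp1 was at 35.1, 9.23 and 2.05 TPM in the YS lines and at no more than 0.61 TPM in the others, with line 1 the highest and line 3 the lowest of the YS group, as for Itgb3. Like Itgb3, Gstp1 passed the filter only through its YS lines, so the filter favoured a likeness of this kind. For Itgax they were Mnd1 (r = 0.948), Ctsf (r = 0.948) and Jag2 (r = 0.935), and Ctsf was listed at 0 in FL lines 1 and 2. For Itgal they were Spop (r = 0.967), Rab11a (r = 0.963) and Eps15 (r = 0.963), each highest in FL line 2.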

How the data were processed

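The authors isolated poly(A) RNA, prepared strand-specific libraries and deposited 1 table of TPM per gene symbol. The submitters' processing notes name Trim Galore 0.6.6, STAR 2.7.9a and RSEM 1.3.3, and the genome build and annotation are not given in the sources used here. The deposited TPM keep no read depth, so no counting interval can be given, and the count test that the study ran on raw reads was replaced by limma. Lines were grouped by their labels. Genes that reached 1 TPM in 3 or more of the 9 libraries were fitted as log2(TPM + 1) in 1 limma 3.58.1 model (R 4.3.3) of all 9, with moderated variances that follow the mean level, and p-values were adjusted per comparison by the Benjamini-Hochberg method. The script was tested on simulated data. Ratios were compared by exact two-sided permutation tests. The subunits and gene lists were chosen with earlier results of these data known. Other subunits that passed the filter were all named, and from each pathway list up to 4 called genes without overlap between groups, by size of difference. Some genes that these rules name are not reported here. Alternatives changed the pseudocount, filter, scaling, trend, libraries, thresholds and block, and left out each line. Promoters came from RefSeq on GRCm38.p6 and exons from the GENCODE M21 annotation. The ATAC-seq and the functional assays were not analysed here.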

Additional observations from a re-analysis of the deposited data

How the results depend on the processing

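Over 30 results of the 10 subunits and up to 20 alternatives, 563 of 597 values kept their direction and their side of the threshold, 20 fell short of a threshold they had passed, 11 passed one they had missed and 3 changed sign. The number of subunits called was 2 (YS against BM), 1 (FL against BM) and 2 (YS against FL). In YS against FL it was 1 with a pseudocount of 4, no filter, a filter of 5 TPM, no intensity trend, an FDR of 0.05 or the replicate block, and 0 in a limma fit of the 6 libraries alone, where 4 had an unadjusted p under 0.05. In YS against BM it was 1 with the filter of 5 TPM, under which Itgb3 was not tested, and 5 with no fold threshold. In FL against BM it was 2 with the 6 libraries alone and 3 with no fold threshold. Leaving out each line in turn, with the tested genes kept, gave 1 to 3, 1 to 2 and 0 to 2 subunits; the 0 arose without FL line 2 (4 at an unadjusted p under 0.05). Without BM line 2 the counts were 2, 1 and 1. A group left with 2 lines still had its spread estimated.

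Differences that changed sign when a line was left out were uncalled before and after. Over the 9 omissions they ranged from -0.64 to 0.13 for Itga7 (positive without YS line 2, BM line 1 or BM line 2, at 0.03, 0.05 and 0.13), from -0.11 to 1.16 for Itga8 (negative without YS line 2), from -0.332 to 0.0882 for Itgam and from -0.35 to 0.13 for Itgb5 (both positive without YS line 3) in YS against BM, and from -0.0745 to 0.55 for Itga6 (negative without YS line 2) and from -0.11 to 0.84 for Itga9 (negative without YS line 1) in YS against FL. The ratio of Itgb3 to Itgb5 moved with the pseudocount: with 0.1 it differed by 6.06 (YS against BM), 0.28 (FL against BM) and 5.78 (YS against FL). The FL against BM difference thereby changed sign, from -0.37 with a pseudocount of 1. With 4 the ratio differed by 2.09 and 2.55 in the comparisons of YS lines with BM and FL lines. Itgb3 is at or near 0 in FL and BM lines, where the pseudocount sets the ratio.

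Lines share the numbers 1 to 3 across groups, and deviations of same-numbered lines correlated between -0.118 and 0.0878, so the numbers were not taken as pairs. With the replicate block, 1503, 1191 and 409 of all genes were called in place of 1504, 1211 and 446, and among the subunits the Itgax call in YS against FL was lost (adjusted p = 0.14). Of the 9 pairs of lines with the same number, none correlated above 0.1. With partners sought for the first-named group, only YS line 2 had a best partner of its own number, in both BM and FL lines. Counts of all called genes in YS against FL moved by over 1.5 times with a pseudocount of 4 (280), an FDR of 0.05 (234), no fold threshold (1500), the 6 libraries alone (81) and without FL line 2 (199), FL line 3 (191), BM line 1 (282) or BM line 3 (292); with no fold threshold they were 4455 in YS against BM and 3247 in FL against BM. TPM hide depth, so small values such as Itgb3 in FL and BM lines carry an unknown counting error.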

Other observations

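The genes beside Itgb3 on chromosome 11 did not show its order of groups. Cdc27 was at 32.3 to 56.8 TPM, Mettl2 at 10.5 to 25.9 TPM and Tlk2 at 17.1 to 29.1 TPM over the 9 lines, and Myl4 and Gm11665 were at no more than 0.98 TPM. Efcab3, next to Itgb3 on the other side, was at 3.1 TPM in FL line 3 and at no more than 0.1 TPM in the others. On either side of Itgal, Sephs2 was at 76.2 to 116 TPM and Zfp768 at 12.7 to 19.2 TPM, while Zfp764, a few genes away, was highest in the FL lines without overlap, as was Itgal. The values of Zfp764 were 12.4, 10.7 and 11.1 TPM in the FL lines, against 9.74, 8.78 and 8.97 TPM in the BM lines and 5.8, 4.62 and 3.45 TPM in the YS lines. Beside Itgb5, Kalrn was at 5.31, 0.45 and 2.49 TPM in the YS lines and at no more than 0.04 TPM in FL and BM lines. Near Itgav, Calcrl was at 94.3 to 115 TPM in BM lines, 17.8 to 27.3 TPM in FL lines and 2.84, 32.7 and 38.9 TPM in YS lines. All 6 neighbours of Itgb3 are given, those of Itgal, Itgb5 and Itgav were picked after their values were seen, and no test was run on any of them.

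Fcgr1, an activating Fc receptor, was at 122 to 330 TPM in YS lines, 110 to 172 TPM in FL lines and 5.47, 42.1 and 1.68 TPM in BM lines 1, 2 and 3. It was named from the macrophage marker list after its values were seen.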
